A study of Mus musculus with 7 samples.

Results

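The 9 genes described here encode epithelial adhesion proteins (Epcam, Cldn4, Cldn7 and Cdh1), keratins of simple epithelia (Krt7, Krt8, Krt18 and Krt19) and the secreted mucosal protein Dmbt1. They were chosen by symbol, with earlier results of these arrays in view and for their signals on the unsorted array, out of 12393 genes measured. Their 11 probe sets, of 22690 on the array, are those annotated to these symbols alone. All of Epcam, Cldn4, Cldn7, Cdh1, Krt7, Krt18, Krt19 and Dmbt1 had 1 probe set each, and Krt8 had 3.

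The study put RNA from fetal liver cells of the mouse on 7 single-channel oligonucleotide arrays, each giving 1 signal per probe set. Of these, 2 arrays held liver endothelial progenitors labelled Sca1+ve, 3 held cells labelled Sca1-ve, 1 held progenitors with no sorting label (here unsorted) and 1 held a feeder cell layer from fetal liver. Sca1 is a cell surface antigen of several stem and progenitor cells in the mouse. Strain, gestational age, culture, sorting gates and any pooling of animals are not given in the sources used here, and all 4 groups share the source, fetal liver. The title of Sca1- replicate 1 calls its cells endothelial without the word progenitor. Nothing in the labels says whether replicates came from separate animals or cultures, so any p-value measures only the spread between these arrays, which may be technical. The unsorted and feeder groups have 1 array each, and the feeder array was deposited in a table of its own. The processing notes of 3 sorted arrays (Sca1+ replicate 2 and Sca1- replicates 2 and 3) name a software that those of the other 4 do not; these 3 are called the second set below, and Sca1+ replicate 1 and Sca1- replicate 1 the first-set sorted arrays.

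Epithelial cells are held together by junctions in which each protein has its place. E-cadherin, the product of Cdh1, forms the adherens junction, claudins seal the tight junction, and Epcam sits in the lateral membrane, where it binds claudins. Keratins form filaments from obligate pairs of an acidic type I and a basic type II chain, and Krt8 with Krt18 is the first such pair of the embryo. In fetal liver these genes are known from hepatoblasts and from the bile ducts that form from them, and Krt8, Krt18 and Krt19 are also made by the mesothelium that covers the organ. Transcription factors of the Snai and Zeb families are known to repress Cdh1 by binding E-box letters in its promoter.

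The promoters shown are those of Epcam, Cldn4, Krt8 and Krt18, the members with an entry in the promoter table whose signals on both the unsorted and the feeder array were at least 2-fold above the mean of the sorted groups. Each runs 5′ to 3′ along the gene's strand, from 250 bases before the start of the gene to 50 after it, from RefSeq on build GRCm38.p6. Capitals mark the E-box letters CACCTG or, on the other strand, CAGGTG.

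Epcam, chr17:87635729-87636028, plus strand: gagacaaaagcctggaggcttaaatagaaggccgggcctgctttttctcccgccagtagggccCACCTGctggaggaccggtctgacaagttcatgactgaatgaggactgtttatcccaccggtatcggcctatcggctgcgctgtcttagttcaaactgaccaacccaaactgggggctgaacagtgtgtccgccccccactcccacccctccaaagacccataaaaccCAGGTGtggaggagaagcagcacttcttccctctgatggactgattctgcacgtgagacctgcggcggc
Cldn4, chr5:134946885-134947184, minus strand: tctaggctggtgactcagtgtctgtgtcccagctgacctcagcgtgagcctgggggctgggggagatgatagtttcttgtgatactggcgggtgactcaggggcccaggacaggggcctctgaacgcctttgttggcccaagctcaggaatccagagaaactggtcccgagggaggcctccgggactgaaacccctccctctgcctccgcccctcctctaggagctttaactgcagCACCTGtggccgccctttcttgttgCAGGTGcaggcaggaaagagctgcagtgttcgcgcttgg
Krt8, chr15:102004293-102004592, minus strand: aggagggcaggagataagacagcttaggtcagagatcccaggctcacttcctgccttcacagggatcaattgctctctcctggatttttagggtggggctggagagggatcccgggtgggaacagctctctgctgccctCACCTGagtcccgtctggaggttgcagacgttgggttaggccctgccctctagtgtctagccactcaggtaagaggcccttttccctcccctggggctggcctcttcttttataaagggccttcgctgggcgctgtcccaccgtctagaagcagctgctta
Krt18, chr15:102027966-102028265, plus strand: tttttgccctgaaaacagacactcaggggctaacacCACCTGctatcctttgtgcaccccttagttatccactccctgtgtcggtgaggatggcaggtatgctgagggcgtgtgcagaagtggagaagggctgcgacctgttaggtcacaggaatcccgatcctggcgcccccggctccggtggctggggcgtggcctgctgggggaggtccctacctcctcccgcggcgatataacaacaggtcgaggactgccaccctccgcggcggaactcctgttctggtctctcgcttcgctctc

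The promoters of Epcam and Cldn4 held 2 such E-boxes each, and those of Krt8 and Krt18 held 1 each. Of the 9 genes, 6 had an entry in the table (Epcam, Cldn4, Cldn7, Krt7, Krt8 and Krt18), with 7 promoters because Cldn7 has 2. The letters stood in 6 of these 7 promoters and in 20.2% of all 32851 promoters in the table. The 6 include the promoter of Krt7 and 1 of the 2 of Cldn7. Also searched were TATAAA, in 1 of the 7 (13.6% of all promoters), and GGGCGG, in 4 of the 7 (35.7%). A match describes the letters and is not a measured binding site. Krt8 (chr15:101996711-102004342) and Krt18 (chr15:102028216-102032026) are neighbours with 23873 bases between them, and Krt7 (chr15:101412403-101427806) lies 568904 bases from Krt8. Cldn7 and Krt19 share chromosome 11, while Epcam, Cldn4, Cdh1 and Dmbt1 lie on chromosomes 17, 5, 8 and 7.

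All signals below are on a scale on which the 2% trimmed mean of an array is 500. The background control probe sets, made for Bacillus subtilis transcripts, had highest signals of 50.8 to 170 in the sorted, 170 in the unsorted and 60.8 in the feeder group, a guide to the signal that an absent transcript can give. The arrays also differed in properties that the group labels do not name. The lower quartile of signals was 106 on the unsorted array against 48.6 to 63.4 on the other 6. The hybridization controls, added in fixed amounts, had a median of 756 on the unsorted and 736 on the feeder array against 2862 to 9811 on the sorted arrays. For beta-actin, the signal of the 3′ probe set over that of the 5′ one, a sign of RNA integrity and labelling, was 1.01 and 1.03 on the unsorted and feeder arrays, 1.87 to 2.37 on the second-set and 6.83 and 13.5 on the first-set sorted arrays. The hybridization controls and this ratio both separated the unsorted and feeder arrays from every sorted array. They cannot be told apart from the contrast of these groups. The part of these differences in the results was not tested. Of 15 endothelial markers, 5 to 11 were above 100 on the sorted arrays, 12 on the unsorted and 7 on the feeder one. Over all 12393 genes, 7576 to 8222 were so on the sorted arrays, 9413 on the unsorted and 8130 on the feeder one. Over the sorted arrays Kdr ranged from 141 to 432 and Eng from 184 to 749, while Pecam1 and Cdh5, chosen after their values were seen, ranged from 15 to 206 and from 7.0 to 237. All 12 leukocyte markers were above 100 on every array, with a summed signal of 110073 to 266580 in the sorted, 79882 in the unsorted and 75995 in the feeder group. For 13 granulocyte markers these sums were 9090 to 619568, 64653 and 4662. The part of blood cells in the results was not tested.

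Across the series, 8 of the 9 genes had a higher signal on the unsorted array than on each of the 5 sorted arrays (35.4% of genes), and 7 had a higher signal on the feeder array than on each of them (23.4% of genes). The exception on the unsorted array was Krt7, and those on the feeder array were Krt7 and Krt18. The genes differed in how far they stood out: Dmbt1 was at 15.1 times its highest sorted signal, itself under background, on the unsorted array and at 1.05 times it on the feeder array, whereas Epcam and Cldn4 stood 3.80-fold to 4.19-fold above it on both. With 1 array in each of these groups, and with the genes chosen for this contrast, these are descriptions and carry no test. In bulk RNA, fewer cells of a type and less RNA per cell cannot be told apart.

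**Figure D1:**
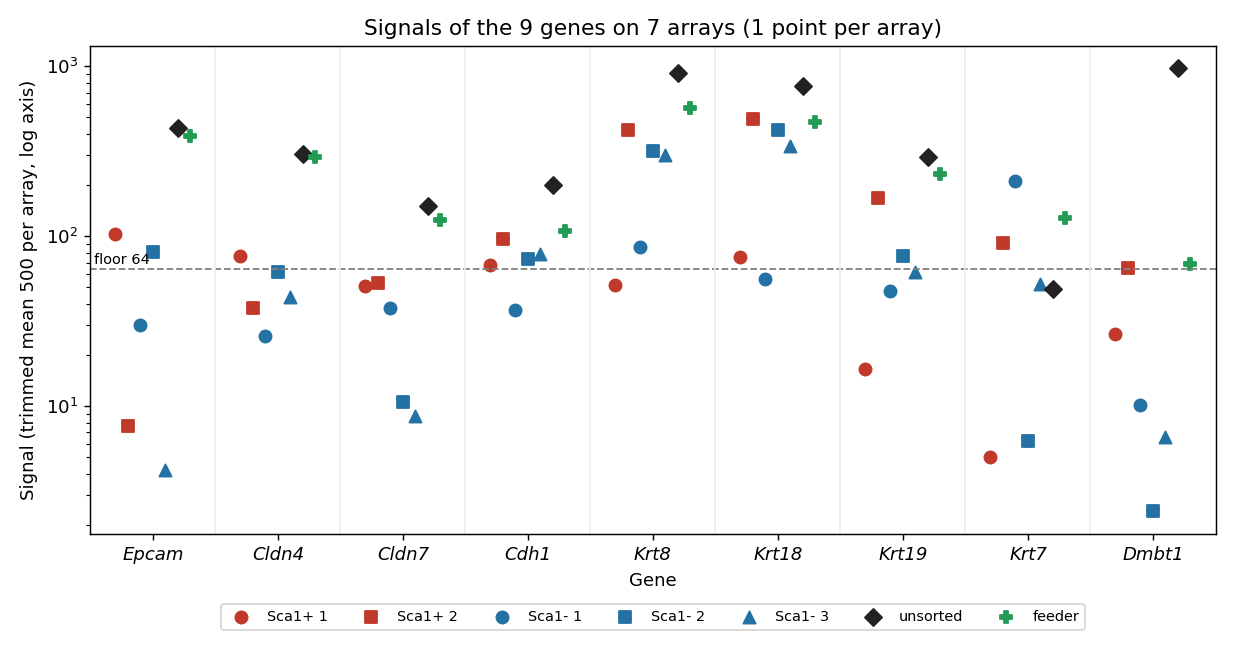
Signals of the 9 genes (log axis, arrays scaled to a trimmed mean of 500), with 1 point per array and the groups by colour and shape; the dashed line is the floor of 64, below which values have no order. The unsorted diamond lies above the 5 sorted points for 8 genes, and Krt7 is the exception.

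Epcam, a calcium-independent adhesion molecule and a common surface marker of epithelial cells, was at 103 and 7.60 on Sca1+ replicates 1 and 2. Sca1- replicates 1, 2 and 3 gave 30.0, 81.2 and 4.20, the unsorted array 431 and the feeder array 391. The unsorted and feeder signals were alike and far above those of every sorted array, of which only Sca1+ replicate 1 passed 100. They were 4.19-fold and 3.80-fold above the highest sorted signal. On the log2 scale, with values under 64 raised to 64, Epcam was 2.52 higher on the unsorted and 2.38 higher on the feeder array than the mean of the sorted groups. Because 3 of the 5 sorted values were raised in this way, the differences understate the gap.

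Cldn4, a tight junction claudin, had the same pattern. The Sca1+ arrays gave 76.8 and 38.0, the Sca1- arrays 25.8, 61.8 and 44.2, the unsorted array 304 and the feeder array 293. No sorted array reached 100, and the unsorted and feeder signals were 3.96-fold and 3.82-fold above the highest of them. Epcam and Cldn4, whose promoters are printed above, lie on different chromosomes. Of the 5 sorted signals of each, 1 passed the background controls of its array.

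Cldn7, a claudin that lies mostly along the lateral membrane and binds Epcam, had lower signals. They were 51.0 and 53.2 in Sca1+, 37.6, 10.6 and 8.80 in Sca1-, 151 in unsorted and 124 in feeder cells. All 5 sorted values lay under the floor of 64 and so have no order among themselves. The unsorted value was 2.84-fold and the feeder value 2.33-fold above the highest of them. On the unsorted array, however, Cldn7 did not pass the highest background control of 170, whereas on the feeder array it passed that of 60.8.

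Cdh1, which encodes E-cadherin, had signals of 68.0 and 96.6 in Sca1+, 36.6, 73.4 and 78.8 in Sca1-, 200.3 in unsorted and 107 in feeder cells. The unsorted signal was 2.07-fold above the highest sorted one, and the feeder signal 1.11-fold, which is within the range over which the sorted arrays differed. By this ratio Cdh1 had the smallest gap of the 4 adhesion genes on both arrays. Against the mean of the sorted groups its unsorted difference was 1.39 and that of Cldn7 1.24. Their order depends on the floor, as with a floor of 16 these differences were 1.53 and 2.18.

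Of the keratins, Krt8 encodes the type II and Krt18 the type I chain of the main pair of simple epithelia. Krt8 was at 51.6 and 422 on Sca1+ replicates 1 and 2, at 86.1, 318 and 299.9 on Sca1- replicates 1, 2 and 3, at 919 in the unsorted and at 569 in the feeder cells. For Krt18 the Sca1+ arrays gave 75.2 and 491, the Sca1- arrays 56, 422 and 341, the unsorted array 762 and the feeder array 468. Both genes were low on the first-set sorted arrays of either label and at 299.9 or more on the 3 second-set arrays. The unsorted signal was 2.18-fold above the highest sorted signal for Krt8 and 1.55-fold for Krt18. The feeder signal was 1.35-fold above it for Krt8, but for Krt18 it lay below that of Sca1+ replicate 2, at 0.953 of it.

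The 3 probe sets of Krt8 disagreed on the size of the difference. The values above are from the probe set with the highest mean, whose name has the suffix a. The first of the other two, both with the suffix x, gave 35.4 and 323 in Sca1+, 34.2, 105 and 166 in Sca1-, 353 in unsorted and 376 in feeder cells. The other gave 94.4 and 229, then 15.2, 122 and 105, then 265 and 270, in the same order. The suffix x marks probe sets that may also detect other transcripts. In both, the unsorted array was only 1.09-fold and 1.16-fold above Sca1+ replicate 2, so a 2-fold gap above every sorted array rests on the first probe set alone.

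**Figure D2:**
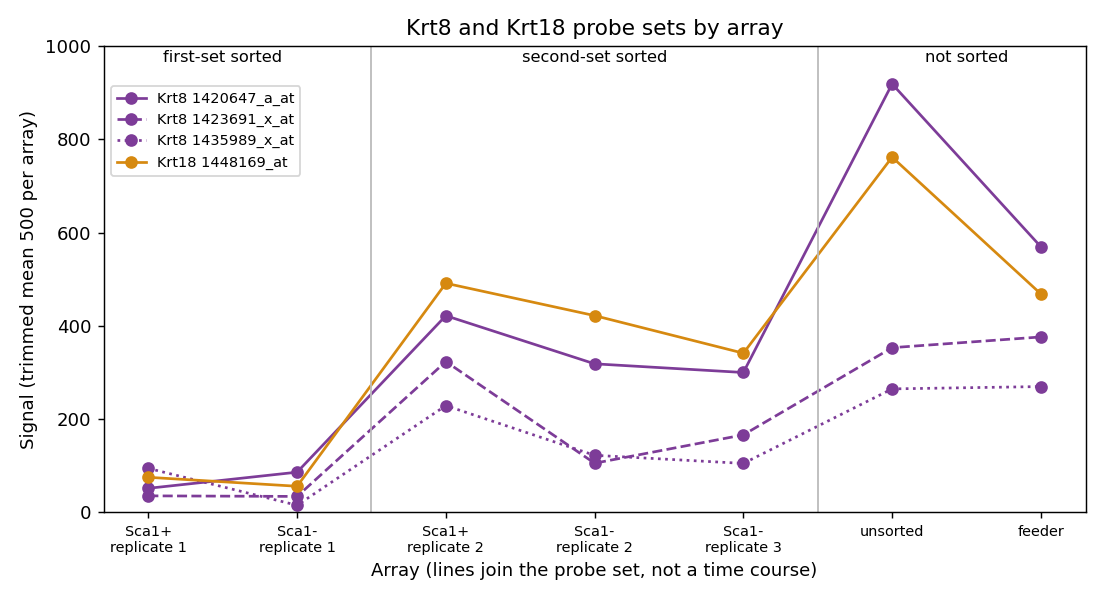
Signals of the 3 Krt8 probe sets and of the Krt18 probe set on each array, with the arrays ordered by set; lines join values of 1 probe set. All 4 were under 100 on the first-set sorted arrays and above 100 on the other 5, and on the unsorted array the Krt8 probe set with the suffix a and that of Krt18 reached 919 and 762.

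Krt19, a type I keratin of ducts and mesothelium, had signals of 16.6 and 169 in Sca1+, 47.6, 76.2 and 61.6 in Sca1-, 293 in unsorted and 233 in feeder cells. The highest sorted value was again Sca1+ replicate 2, and the unsorted and feeder signals were 1.74-fold and 1.38-fold above it. Without that array, Krt19 was also at least 2-fold above every sorted array on both.

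Krt7, a type II keratin of ducts and glands, did not share the pattern. The Sca1+ arrays gave 5.0 and 91.2, the Sca1- arrays 211, 6.20 and 52.6, the unsorted array 48.8 and the feeder array 129. Its highest signal was on Sca1- replicate 1, an array on which background controls reached 170, and its unsorted signal was under the floor. Krt7 was the only member with a higher signal on the feeder than on the unsorted array, by 1.01 on the log2 scale with the floor of 64. That difference fell below 2-fold after quantile normalization or median scaling.

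Dmbt1 encodes a large secreted glycoprotein of mucosal surfaces with scavenger receptor cysteine-rich domains, which binds bacteria and is made by epithelia and ducts. Its signals were 26.6 and 64.8 in Sca1+, 10.2, 2.40 and 6.60 in Sca1-, 976 in unsorted and 68.2 in feeder cells. A high signal was seen on the unsorted array alone, at 15.1 times the highest sorted signal and 14.3 times the feeder signal. As no sorted signal passed the background controls of its array, the ratio of 15.1 has no firm base. Against the highest of those controls, 170, the unsorted signal was 5.74-fold higher, a ratio that holds for trimmed mean scaling only. On the log2 scale Dmbt1 was 3.93 higher (3.34 with median scaling) on the unsorted array than the mean of the sorted groups. The feeder array exceeded that mean by 0.09. Within its array, Dmbt1 stood at percentile 81.6 of all genes on the unsorted array, at 27.9 on the feeder array and at 0.45 to 26.2 on the sorted arrays.

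**Figure D3:**
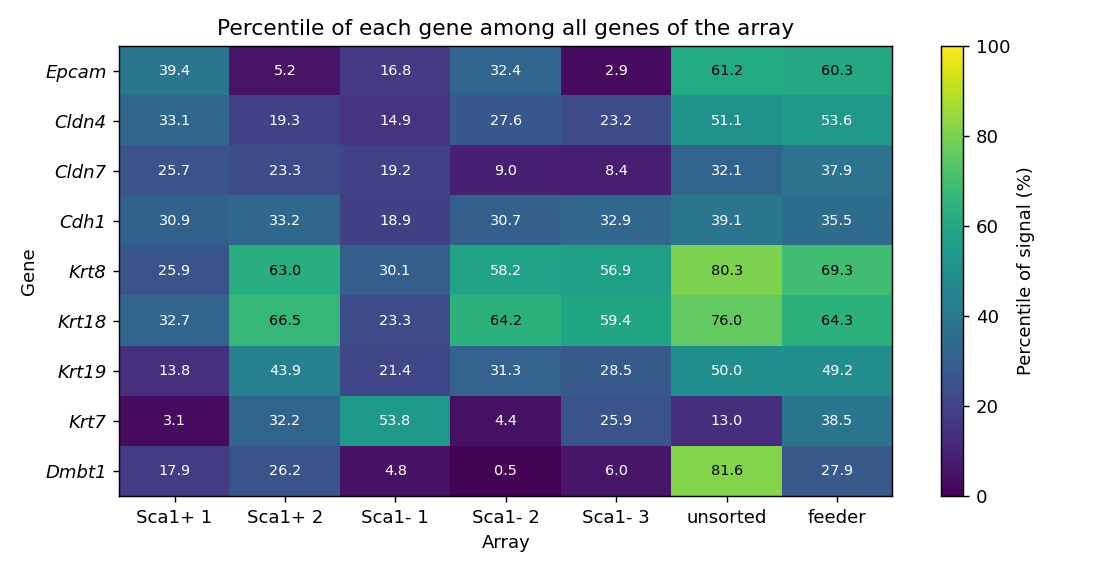
Percentile of each gene among all genes of the same array (colour, 0 to 100%), with 1 row per gene and 1 column per array; rows compare 1 gene across arrays. Dmbt1 was at 81.6 on the unsorted array only, Epcam at about 60 on both the unsorted and the feeder array, and Krt8 and Krt18 were above 55 on every array but the 2 first-set sorted ones.

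The counts can be read against all genes. A signal above 100 on 1 or more arrays was found in 10565 genes, which include all 9 members. On the unsorted array, 21.4% of them lay 2-fold or more above the mean of the sorted groups and 6.8% as far below it, against 8 and 0 of the 9 members. An unsorted signal above every sorted array occurred in 8 of 9 members and in 35.4% of genes, and one at least 2-fold above every sorted array in 6 of 9 and in 7.36%. As 7 of the 9 members were above 100 on fewer than 2 sorted arrays, the 1974 genes of that kind give a nearer background. Among those 1974, 28.3% were at least 2-fold above every sorted array on the unsorted array, against 5 of those 7 members. The median difference between the unsorted array and the sorted groups was 1.92 over the 9 members and 0.27 over the 10565 genes, and 1.80 over those 7 members and 0.89 over the 1974.

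On the feeder array, 5 of 9 members and 11.4% of genes were at least 2-fold above the mean of the sorted groups, and 0 members and 6.68% of genes were as far below it. A feeder signal above every sorted array was seen in 7 of 9 members and 23.4% of genes, and one at least 2-fold above every sorted array in 3 members (Epcam, Cldn4 and Cldn7) and 2.56% of genes (5.83% of the 1974). Cldn7 is counted although none of its sorted signals, nor its unsorted one, passed the background controls of the array. The same 3 genes were at least 2-fold above every sorted array on both the unsorted and the feeder array, as were 1.1% of genes and 3.85% of the 1974. Above every sorted array on both, by any margin, were 7 members and 15.7% of genes. The median difference between the feeder array and the sorted groups was 1.22 over the 9 members and 0.00 over the 10565 genes, and 0.96 over the 7 members and -0.05 over the 1974. Between the feeder and the unsorted array, which each have 1 sample, only Krt7 was at least 2-fold higher on the feeder (3.77% of genes) and only Dmbt1 at least 2-fold lower (14.7% of genes). Since the members were chosen with these contrasts known, nothing is read from these shares.

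Scaling changed the size of the gaps. With the trimmed mean, the unsorted array was at least 2-fold above the mean of the sorted groups in 2265 genes and below it in 718. Quantile normalization gave 1013 higher and 1193 lower, and scaling to the median gave 560 and 2376. The median over all genes then moved from 0.27 to -0.04 and -0.35. For the feeder array the split was 1204 higher and 706 lower, then 848 and 925, then 687 and 1380, with medians of 0.00, -0.13 and -0.24. Between the feeder and the unsorted array it was 398 higher and 1548 lower, then 654 and 766, then 866 and 652. The unsorted signal of 8 members still lay above every sorted array under both alternatives, as did that of 22.3% of genes after quantile normalization and 12.9% after median scaling. The members at least 2-fold above every sorted array were Epcam, Cldn4, Krt8 and Dmbt1 after quantile normalization (2.34% of genes) and Epcam, Cldn4 and Dmbt1 after median scaling (1.73%). On the feeder array Epcam and Cldn4 were so under both (1.86% and 1.34% of genes). The feeder signal lay above every sorted array in 7 members (18.2% of genes) after quantile normalization and in 5 (12.7%) after median scaling, where Cdh1 and Dmbt1 no longer did.

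**Figure D4:**
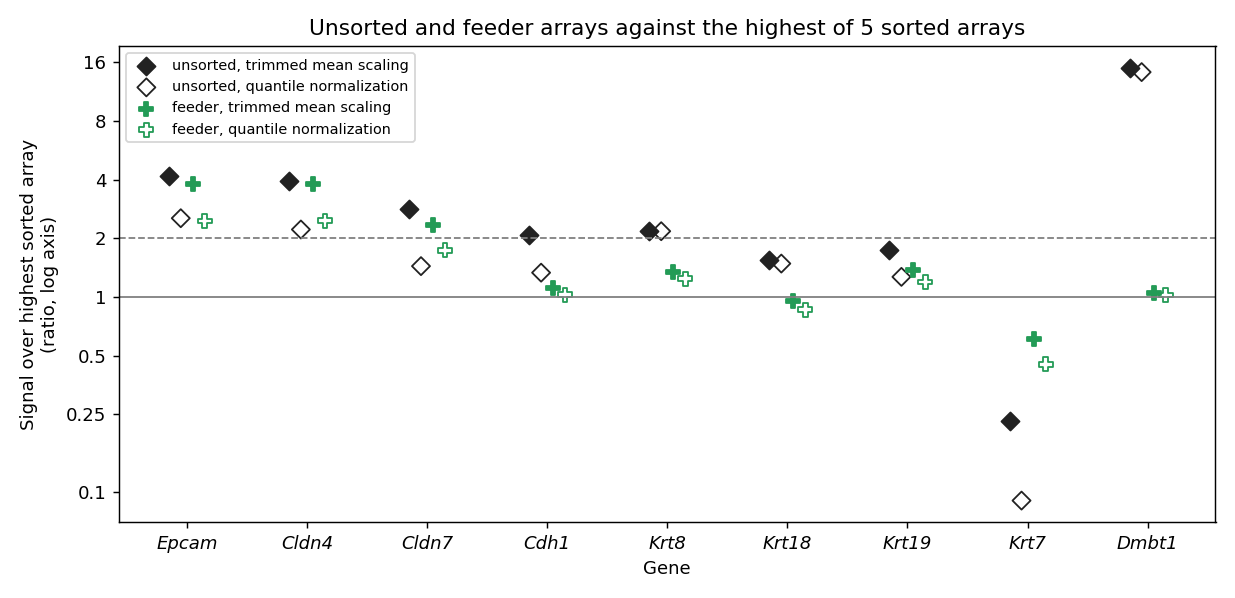
Ratio of the unsorted (diamonds) and feeder (crosses) signal of each gene to its highest signal among the 5 sorted arrays (log axis), after trimmed mean scaling (filled) and quantile normalization (open); lines mark ratios of 1 and 2. Epcam and Cldn4 stay above 2 on both arrays under both scalings, Dmbt1 does so on the unsorted array only, and Krt7 lies below 1 throughout.

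The question of whether the sorted populations differ asks for Sca1+ against Sca1-, the only contrast with more than 1 array on each side. Krt8 and Krt18 passed the filter on low signals (above 100 on at least 2 sorted arrays), and the other 7 members had no test. Krt8 was 0.30 lower in Sca1+ on the log2 scale (-0.30 ± 0.93 SE, n = 2 against 3, adjusted p = 0.9995 by limma). Krt18 differed by -0.13 ± 1.06 SE (adjusted p = 0.9995 by limma). Neither difference exceeded the spread between replicates. Over the 8591 genes tested, limma called 0 genes (0.0%) after Benjamini-Hochberg adjustment, and 292 had an unadjusted p under 0.05. In Krt8 the 3 Sca1- arrays had a mean signal of 235 ± 129 (SD, n = 3), and the 2 Sca1+ arrays lay on either side of them.

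The wide error came with the set of the array. All 3 second-set sorted arrays were above both first-set ones in Cdh1, Krt8, Krt18 and Krt19, 4 of 9 members against 23.7% of genes. With the set as a block, Krt8 differed by 0.07 ± 0.34 SE (adjusted p = 0.932 by limma) and Krt18 by 0.31 ± 0.31 SE (adjusted p = 0.628), while 85 other genes, 0.989% of those tested, were called lower in Sca1+. Within the first set, Sca1+ minus Sca1- was -0.43 in Krt8 and 0.23 in Krt18, from 1 array each. Within the second set it was 0.45 and 0.37. Most of the 15 fibroblast and stellate markers were higher on every second-set than on both first-set sorted arrays. The exceptions were Acta2, Fn1 and Thy1, the last chosen after its values were seen. The others followed the set. Col1a2 (784 and 1822 on the first-set, 11056 to 25650 on the second-set arrays) and Vim (13391 and 8576, 13854 to 17107) were separated by it, while Acta2 (2267 and 10111, 5022 to 10739) and Fn1 (8364 and 2106, 6083 to 12366) overlapped. The collagen Col1a1, chosen after its values were seen, was at 79.4 and 32.6 on the first-set sorted arrays, at 8319 to 20565 on the second-set ones, at 13192 on the unsorted and at 16207 on the feeder array. The 15 fibroblast and stellate markers had summed signals of 26209 and 24373 on the first-set ones, 56524 to 124829 on the second-set ones, 88815 on the unsorted and 113702 on the feeder array. The part of set, RNA integrity or fibroblast content in the Krt8 and Krt18 signals was not tested. Against the second-set arrays alone, an alternative chosen after seeing the data, Krt8 was 1.35 higher on the unsorted and 0.66 higher on the feeder array, in place of 2.33 and 1.64 against all sorted arrays. Krt18 was then 0.82 and 0.12 higher, in place of 1.92 and 1.22.

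Both Sca1+ arrays were above every Sca1- array in 2 members, Cldn7 and Dmbt1, against 11.3% of genes, but these values lay at or about the floor and have no order. In 0 members were both Sca1+ arrays below every Sca1- array, against 8.44% of genes.

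The members' patterns over the 6 arrays of the larger table were compared by correlation. Krt8 and Krt18 ran together (Pearson r = 0.98 of log2 signals), as did Epcam and Cldn4 (r = 0.99), whereas Epcam and Krt18 had r = 0.43. Dmbt1 had r = 0.97 with Epcam and r = 0.99 with Cldn4, so these values do not set either gene apart from it. Krt7 had r of -0.22 to -0.56 with the other members. These values describe 6 arrays, which include 1 unsorted array that sets much of each correlation. The genes most like Krt8 were Samd4b, Qrich1 and Cd99, and those most like Krt18 were Nsa2, Ncstn and Nr4a1, each with r of at least 0.99. None of these is a keratin. The genes most like Epcam were Reg3b, Notum and Il2rb, and Reg3b shared the feeder signal too (530 on the unsorted, 449 on the feeder and 69.8 to 120 on the sorted arrays). The genes nearest to Cldn4 were Car4, Fxyd3 and Sprr2h. Those nearest to Krt19 were Tcim, Svep1 and Fgf13, and those nearest to Dmbt1 were Ogn, Apoa1 and Fcgbp, whose sorted signals were all under the floor, as were those of Dmbt1 but for 64.8 on Sca1+ replicate 2. Likeness ranked 2730 genes with a signal above 200 and a log2 range of at least 2, so genes high on the unsorted array alone fill such a list.

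Other genes of epithelial junctions and filaments were counted by the rule of at least 2-fold above every sorted array, among those with a signal above 100 on some array, as in the 7.36% of genes that met it on the unsorted and the 2.56% on the feeder array. Of 10 other keratins, 6 had such a signal, and 1 of these, Krt20, chosen after its values were seen, met the rule on the unsorted (397) and feeder (143) arrays, with 5.0 to 53.6 on the sorted ones. The keratins of stratified epithelium did not follow: Krt5 was at 13.8 to 191 on the sorted arrays, 116 on the unsorted and 45.8 on the feeder array, and Krt14 at 35.6 to 209, 120 and 63.4. Of 13 other tight junction genes with such a signal, 3 on the unsorted and 1 on the feeder array met it. The latter was Cldn6, chosen after its values were seen. Tjp1, a scaffold that links junctions to actin, was at 80.6 to 439 on the sorted arrays, 395 on the unsorted and 551 on the feeder array, so the groups overlapped on the unsorted side. Of 19 adherens junction and desmosome genes, 2 on the unsorted and 1 on the feeder array met the same rule. Ctnnb1, which ties cadherins to the cytoskeleton and is made by many cell types, was at 8814 to 11524 on the sorted arrays and at 8065 and 7295 on the unsorted and feeder arrays. Of 15 genes of epithelial identity, 2 on the unsorted and 0 on the feeder array met the rule. The transcription factor Grhl2, an activator of Cdh1, was at 111 to 472 on the sorted arrays, 642 on the unsorted and 160 on the feeder array, so on this scale it was above every sorted array on the unsorted array alone.

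The repressors of epithelial genes were counted as well. Of 7 measured, 5 were above 100 on the unsorted and 6 on the feeder array, as were 9413 and 8130 of all 12393 genes. Of the 6 above 100 on some array, 0 were at least 2-fold above every sorted array on either. Zeb2 was at 79.6 to 1159 on the sorted arrays, 1873 on the unsorted and 1223 on the feeder array. Zeb1 was at 258 to 1093 on the sorted arrays, 697 on the unsorted and 663 on the feeder array. Snai1 was at 5.0 to 305 on the sorted arrays, 407 on the unsorted and 270 on the feeder array. On this scale Zeb2, like Epcam and Cldn4, was above every sorted array on both the unsorted and the feeder array, whereas Zeb1 lay within the sorted range on both and Snai1 did so on the feeder array.

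Marker lists of cell types that could carry these genes moved with them in part. Of 17 hepatoblast and hepatocyte genes, 2 to 8 were above 100 on the sorted arrays, 14 on the unsorted and 4 on the feeder array. Their summed signal was 783 to 2757 on the sorted arrays, 5516 on the unsorted and 2699 on the feeder array. Dlk1, a surface marker of hepatoblasts that fetal mesenchyme also makes, was at 59.0 to 850 on the sorted arrays, 2510 on the unsorted and 1728 on the feeder array. Of the 15 with a signal above 100 on some array, 6 on the unsorted and 2 on the feeder array were at least 2-fold above every sorted array, Dlk1 and Apoa1 on both. Apoa1, an apolipoprotein of hepatocytes chosen after its values were seen, was at 4.4 to 28.6, 272 and 59.98. Its feeder signal lay under the floor, below which values have no order, and under that array's highest background control of 60.8. Of the 2 genes counted on the feeder array, only Dlk1 thus had a signal above that control. Alb and Afp, the plasma proteins that define hepatoblasts, lay within the sorted range on both arrays. Alb was at 29.8 to 317 on the sorted arrays, 288 on the unsorted and 102 on the feeder array, and Afp at 68.0 to 502, 297 and 189. Of 9 bile duct genes, 4 or 5 were above 100 on each sorted array, 6 on the unsorted and 4 on the feeder array, and 0 of the 7 above 100 on some array were at least 2-fold above every sorted array on either. Their summed signal was 5924 to 26495 on the sorted arrays, 6107 on the unsorted and 5405 on the feeder array, a sum carried by Cd24a, which blood cells also make (20460 of the 26495 on Sca1- replicate 1), and by Anxa4. Sox9, a duct transcription factor chosen after its values were seen, was at 5.80 to 91.2 on the sorted arrays, 132 on the unsorted and 67.4 on the feeder array. It was the only 1 of those 7 above every sorted array on the unsorted array, but under that array's highest background control of 170. Prom1 (69.2 to 3103, 161 and 103) and Slc4a2 (476 to 1219, 837 and 1014) lay within the sorted range on both. On Sca1- replicate 1 Prom1 added 3103 to the sum, more than Anxa4 at 1982.

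Of 9 mesothelial genes, 2 to 5 were above 100 on the sorted arrays, 6 on the unsorted and 5 on the feeder array. Their summed signal was 990 to 2944 on the sorted arrays, 3337 on the unsorted and 3639 on the feeder array. Wt1, a transcription factor of mesothelium, was at 5.80 and 11.6 on the first-set and 148 to 391 on the second-set sorted arrays, 400 on the unsorted and 570 on the feeder array. The adhesion molecule Alcam was at 421 to 686 on the sorted arrays, 943 on the unsorted and 1515 on the feeder array, while Pdpn (319 to 1229, 993 and 933) and Mest (70.4 to 462, 389 and 249) lay within the sorted range on both. Msln and Upk3b, 2 defining mesothelial genes, were chosen after their values were seen. Msln was at 10 to 66.8 on the sorted arrays, 65.0 on the unsorted and 33.2 on the feeder array. Upk3b was at 10.8 to 93.6, 140 and 151, in the same order. The unsorted signals of both lay under that array's highest background control of 170. Of 14 genes of intestinal epithelium, where Dmbt1, Cldn4 and Krt20 are also abundant, 1 to 6 were above 100 on the sorted arrays, 6 on the unsorted and 5 on the feeder array. Their summed signal was 505 to 1699 on the sorted arrays, 2162 on the unsorted and 1328 on the feeder array. The mucosal peptide gene Tff3 was at 29.6 to 88.6 on the sorted arrays, 378 on the unsorted and 238.7 on the feeder array. Lypd8 was at 8.80 to 90.4, 275 and 362. Lgals4 lay within the sorted range on both (160 to 666, 373 and 291), and Pigr was above that range on the unsorted and below it on the feeder array (70.8 to 195, 251 and 37.6). Of the 9 with a signal above 100 on some array, 3 on each of the unsorted and feeder arrays were at least 2-fold above every sorted array. The part of any of these cell types in the signals of the members was not tested.

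Genes related to Dmbt1 were measured too. Of 8 genes with a signal above 100 on some array in the scavenger receptor cysteine-rich family, 0 were at least 2-fold above every sorted array on the unsorted or the feeder array. Msr1, a receptor of macrophages, was at 2126 to 9702 on the sorted arrays, 3221 on the unsorted and 5108 on the feeder array. Of 9 such genes of proteins that bind Dmbt1, 2 on the unsorted and 1 on the feeder array met the rule, the latter being Tff3. Ltf, a neutrophil granule protein, was at 430 to 72792 on the sorted arrays, 6063 on the unsorted and 325 on the feeder array. Its unsorted signal lay within the sorted range and its feeder signal below it.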

How the data were processed

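Signals were taken as deposited by the authors, in 2 series tables of the same array design: linear intensity values, 1 per probe set, with 6 arrays in the larger table and the feeder array in the other. Every deposited array already had a 2% trimmed mean of 250.1. The submitters' processing notes name GCOS, Affymetrix's array software, for 3 arrays, and for the other 4 arrays no software is given in the sources used here. Among the probe sets, 64 were controls, 20380 named 1 gene, 691 several and 1555 none, and only those with 1 gene were used. Here arrays were brought to a trimmed mean of 500, signals under 64 were raised to 64, and log2 was taken. The probe set with the highest mean over the larger table stood for a gene, and 12377 of 12393 symbols were in the RefSeq table. No pair of arrays held identical values.

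Sca1+ and Sca1- were compared by a two-sided moderated fit in limma 3.58.1 under R 4.3.3, with the prior spread following intensity and a Benjamini-Hochberg threshold of 0.05, over 8591 genes above 100 on at least 2 sorted arrays, with 3 residual degrees of freedom. The fit was tested on simulated data: at log2 changes of 1, 2, 3 and 4 it recovered 0, 2, 21 and 30 of 50 changed genes. The unsorted and feeder arrays have no test. The members, the gene lists and the set block were chosen with earlier results of these data known. Besides the 9 members, the 4 genes of each list with the highest mean log2 signal and the 3 genes most like a member were open to naming, and genes chosen after their values were seen are marked. The alternatives run were median scaling, quantile normalization, a lower floor (16), a higher one (128), a pseudocount of 32 in place of it, the mean of probe sets, other filters, blocks and leaving out each sorted array. The number of arrays limits the precision.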

Additional observations from a re-analysis of the deposited data

How the results depend on the processing

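Of the 9 members, 8 were at least 2-fold higher on the unsorted array than the sorted mean. This count became 6 with quantile normalization, 6 with median scaling and 6 with the higher floor. In each of these Cldn7 and Cdh1 fell below 2-fold. It was 7 without the first-set sorted arrays, an alternative chosen after seeing the data. Leaving out each sorted array gave 8 to 8. The feeder count of 5 became 8 with the lower floor (16), 3 with the higher floor and 3 without the first-set sorted arrays (an alternative chosen after seeing the data). It ranged from 3 to 5 without single sorted arrays, and was 3 without Sca1+ replicate 1. The count of 1 member at least 2-fold higher on the feeder than on the unsorted array became 0 with quantile normalization, 0 with median scaling, 0 with the higher floor and 0 with a pseudocount of 32. At least 2-fold above every sorted array, the feeder count was 5 without Sca1+ replicate 2, with Krt19 and Dmbt1 added (6.28% of genes).

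For Sca1+ against Sca1-, limma called 0 members under every setting. It called 1 gene with no filter on low signals and 85 with the set block. Krt8, at -0.30, turned to 0.012 with the higher floor, 0.27 with the mean of probe sets, 0.072 with the set block and 0.45 without the first-set sorted arrays, and ranged from -1.66 to 1.06 without single arrays. Krt18, at -0.13, turned to 0.031 with quantile normalization, 0.31 with the set block and 0.37 without the first-set sorted arrays, and ranged from -1.48 to 1.23. Counts without single arrays ranged from 0 to 0. The cause was not tested. Replicate numbers gave a block too, which called 80 genes, with Krt8 at -0.01 and Krt18 at 0.23. Only number 2 is given in the titles of both groups, and numbers follow the set. Deviations of same-numbered arrays correlated at 0.57 and 0.48, and those of Sca1+ replicate 2 and Sca1- replicate 3 at 0.52. The 2 Sca1+ arrays deviate from their mean as mirror images, so these values are not independent. Such values pair arrays by set, not by a known animal. Of the differences of single members under the alternatives, 84 for the unsorted array against the sorted ones stayed within the replicate spread and 24 moved, 85 and 23 for the feeder array against the sorted ones, and 39 and 15 for feeder against unsorted. That spread was 0.0 for Cldn7 and 0.007 for Dmbt1, whose sorted values were all or mostly raised to the floor. It was 1.41 for Krt8 and 1.64 for Krt18. Dmbt1 going from 3.93 to 3.88 thus counted as moved, and Krt18 going from 1.92 to 0.82 did not. These counts therefore do not measure how stable a member was. The small number of arrays limits all members, and each of them fell under the highest background control on at least 1 sorted array.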
